A study of Homo sapiens with 4 samples.

Results

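The genes of meiosis and of the piRNA pathway were examined in T24 cells with and without the catalytic domain of TET1. The 42 genes, of 57879 genes listed in the files, were chosen by name for their roles in germ cells, with results of these same libraries known. They cover 7 germ cell RNA-binding proteins and factors, 8 genes of the synaptonemal complex and chromosome axis, 4 of meiotic cohesin, 7 of meiotic recombination, 3 PIWI proteins, 11 of piRNA biogenesis and the tudor family, and 2 other spermatogenesis genes. Because the choice was made with the EV and TET1-CD values in view, differences between the groups in these genes are given as a description and carry no p-value. Calls among them, which rest on an adjusted p, are labels within that description and not tests.

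RNAseq was performed on T24, a human urinary bladder cancer cell line that expresses little TET1 of its own. Control cells carried the empty vector (EV, n = 2 libraries), and TET1-CD cells carried a lentiviral vector with the FLAG-tagged catalytic domain of TET1 (n = 2 libraries). Both were stable, puromycin-selected populations grown in RPMI with 10% FCS, and the labels give the source of all 4 samples as T24_induced without saying what was induced. The enzymatically inactive TET1 mutant has no library here, so catalytic activity and the presence of the protein cannot be told apart.

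TET1 is a dioxygenase that converts 5-methylcytosine in DNA to 5-hydroxymethylcytosine, a step towards loss of methylation. In meiosis, homologous chromosomes are held along an axis built on meiotic cohesin, are zipped together by the synaptonemal complex, and exchange DNA by recombination. In the fetal and adult testis, PIWI proteins loaded with piRNAs silence transposons, and tudor proteins scaffold this machinery. Many of these genes have CpG-rich promoters that are methylated and silent in somatic cells.

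The promoters of 2 of the genes that were higher in TET1-CD cells, SYCP2 and SMC1B, are printed to show how dense their CpG sites are, with each CpG in capitals. Both genes share a promoter with a divergent neighbour, and only the bases between the first bases of the gene pair are shown, 5′ to 3′ on the strand of the named gene. The sequences are those of RefSeq on GRCh38.p14. SYCP2 lies opposite FAM217B at chr20:59933638-59933778 (minus strand, 141 bases with 20 CpG), and SMC1B lies opposite RIBC2 at chr22:45413600-45413692 (minus strand, 93 bases with 15 CpG).
SYCP2: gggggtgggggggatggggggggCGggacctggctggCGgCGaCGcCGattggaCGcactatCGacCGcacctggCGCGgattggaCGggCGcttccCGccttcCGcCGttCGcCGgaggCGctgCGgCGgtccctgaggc
SMC1B: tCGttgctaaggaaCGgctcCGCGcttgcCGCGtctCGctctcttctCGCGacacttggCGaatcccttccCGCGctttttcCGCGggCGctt

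4 further promoters are printed for contrast, each as the 250 bases before the start. DMC1, at chr22:38570184-38570433 (minus strand, 23 CpG), had more counts in TET1-CD cells but too few to be tested. REC8, at chr14:24171830-24172079 (plus strand, 21 CpG), was transcribed in both groups. ASZ1, at chr7:117427494-117427743 (minus strand, 21 CpG), and DDX4, at chr5:55766635-55766884 (plus strand, 0 CpG), had no counts in any library. ASZ1 and DDX4 thus stand for a CpG-dense and a CpG-free window among the silent genes. The DDX4 window precedes the only start listed for it in the reference, whereas the files list 14 transcripts of DDX4. Whether it is the main start of DDX4 was not checked, so the window is not taken as its germ cell promoter.
DMC1: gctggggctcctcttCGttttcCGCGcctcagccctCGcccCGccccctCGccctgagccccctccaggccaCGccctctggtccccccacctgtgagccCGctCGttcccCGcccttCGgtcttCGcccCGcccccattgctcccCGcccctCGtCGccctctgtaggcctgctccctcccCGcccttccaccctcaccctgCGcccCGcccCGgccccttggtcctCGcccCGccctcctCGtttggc
REC8: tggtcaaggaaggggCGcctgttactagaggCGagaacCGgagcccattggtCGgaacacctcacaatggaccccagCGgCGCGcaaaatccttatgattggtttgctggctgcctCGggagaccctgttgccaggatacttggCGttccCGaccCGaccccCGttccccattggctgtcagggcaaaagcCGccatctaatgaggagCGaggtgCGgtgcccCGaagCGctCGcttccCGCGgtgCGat
ASZ1: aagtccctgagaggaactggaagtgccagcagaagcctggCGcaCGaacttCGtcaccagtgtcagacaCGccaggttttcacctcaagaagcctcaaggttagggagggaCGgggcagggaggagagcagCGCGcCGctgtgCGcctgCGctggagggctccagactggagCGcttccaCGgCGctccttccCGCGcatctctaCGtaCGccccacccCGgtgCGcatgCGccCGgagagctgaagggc
DDX4: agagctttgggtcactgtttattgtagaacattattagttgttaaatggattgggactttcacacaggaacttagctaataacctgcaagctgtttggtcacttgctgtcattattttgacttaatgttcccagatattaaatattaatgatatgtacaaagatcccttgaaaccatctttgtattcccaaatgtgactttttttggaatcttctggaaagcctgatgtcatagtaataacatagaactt

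The libraries held 17442143 to 20295266 estimated fragments and 16205 to 16587 genes above 3 counts. TET1 itself, at chr10:70320413-70454239 on hg19, had 111 and 83 counts under EV against 2939 and 3310 under TET1-CD, a log2 fold change of 5.02 (SE 0.08, adjusted p = 4.9e-10 by edgeR's quasi-likelihood test), and the counts of the vector and of the cell's own gene cannot be told apart. Across the genes tested, 2.72% were called higher and 1.04% lower in TET1-CD cells, where a call needed an adjusted p below 0.05 and a change of at least 2-fold. Of the marker genes for bladder epithelium, keratins KRT7, KRT8 and KRT18 were abundant, whereas 5 of 13 markers, among them uroplakins, did not exceed 3 counts in both libraries of either group. 2 of these markers were called higher in TET1-CD cells, KRT19 (log2 fold change 1.01, adjusted p = 0.00273) and GATA3 (1.25, adjusted p = 0.0163), while the summed counts of the list were 47997 and 40715 under EV and 47004 and 51808 under TET1-CD, and their part in the results on germ cell genes was not tested. Markers of late spermatids summed to 1 and 5 counts in the EV and again 1 and 5 in the TET1-CD libraries, with 5 of 8 at 0 everywhere, and none exceeded 5 counts. No marker of mesenchymal, primordial germ, Sertoli and Leydig or lymphoid cells was called in either direction by edgeR with an adjusted or unadjusted p. Below the 2-fold limit, the mesenchymal marker VIM was lower (log2 fold change -0.39, edgeR adjusted p = 0.00232) and KRT7 was higher (0.34, edgeR adjusted p = 0.00175) in TET1-CD cells, and their part in the results was not tested either.

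Most of the 42 genes were silent or nearly so in both groups. A gene was taken as detected in a group when both of its libraries exceeded 3 counts, which is the limit that a count of 0 allows and equals 0.148 to 0.172 CPM here (counts scaled to library size). By this rule 25 genes were detected in neither group, 10 in both, 6 in TET1-CD cells alone and 1 in EV cells alone. Of the 25, 11 had no count in any library and 14 had between 1 and 10 counts in at least 1 library. 22 and 20 of the genes had no count in the EV libraries, against 18 and 14 in the TET1-CD libraries. In the EV libraries 14 and 16 of the members exceeded 3 counts, against 18 and 18 in the TET1-CD libraries. Over all genes these numbers were 16351 and 16205 against 16275 and 16587. The split into genes detected in 1 group alone was not counted over all genes. The members were chosen with these values known, so nothing is read from their split. The limit of 3 counts and the counting intervals given below cover counting error only. Over all genes with enough counts, the spread between libraries of a group was larger. Its chi-square per gene, near 1 under counting error alone, was 6.13 between the EV and 2.68 between the TET1-CD libraries. The intervals pool the libraries of a group and are not tests. In bulk cells, fewer transcribing cells and less RNA in each cell cannot be told apart.

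The 10 genes detected in both groups were also the 10 that passed the filter on low counts. Of these 10, 4 were called higher in TET1-CD cells (TEX15, SMC1B, SYCP2 and HORMAD1), none was called lower, and 6 were not called. edgeR also placed none lower at an unadjusted p below 0.05 with a 2-fold change, and neither did DESeq2 or limma-voom after adjustment. The share of all tested genes called higher was 2.72%. Nothing is read from the comparison, and the 4 calls are not tests, since the members were chosen with these values known. In addition, a gene low in EV passes the filter only if it is higher in TET1-CD cells, as TEX15, SMC1B and HORMAD1 did. The 4 called genes come from the recombination group (TEX15), cohesin (SMC1B) and the synaptonemal complex group (SYCP2 and HORMAD1). None of the genes filed under piRNA biogenesis, PIWI proteins or germ cell factors was called, although TEX15 also acts in piRNA-guided silencing.

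**Figure D1:**
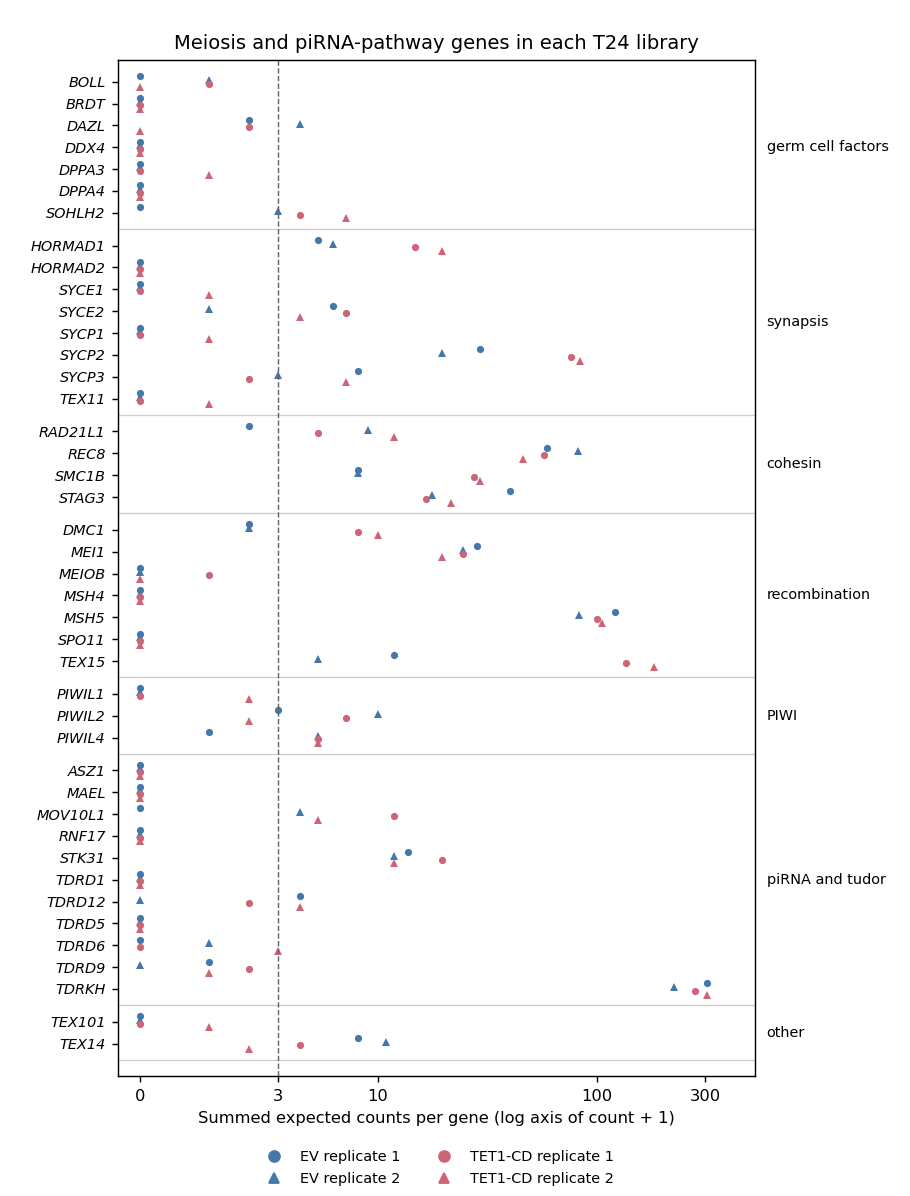
Summed expected counts of each of the 42 genes (horizontal log axis of count + 1) in the 2 EV (blue) and 2 TET1-CD (red) libraries, with genes in rows grouped by role, circles for replicate 1, triangles for replicate 2 and a dashed line at 3 counts. TEX15 shows the widest contrast, with 12 and 5 counts under EV against 134 and 179 under TET1-CD, and 11 genes are at 0 in every library.

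TEX15, a large protein needed for repair of meiotic double-strand breaks and for piRNA-guided silencing, had the largest difference among the 42 genes. It lies at chr8:30689060-30748122 on hg19 and was listed with 12 and 5 counts with EV against 134 and 179 with TET1-CD. Both TET1-CD libraries thus stood far above both EV libraries. After scaling to a common library size, the means were 8.22 ± 4.01 and 156.2 ± 19.7 counts (SD, n = 2 each), a log2 fold change of 4.20 (SE 0.28) or 18.3-fold. Its FPKM, which is scaled to transcript length, was 0.06 and 0.03 with EV and 1.04 and 1.13 with TET1-CD. Of its 3 listed transcripts, ENST00000256246 held 12 and 5 counts with EV against 125 and 171 with TET1-CD. The short ENST00000523186 was at 0 under EV and at 9 and 8 counts under TET1-CD.

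SYCP2, a lateral element protein of the synaptonemal complex at chr20:58438618-58508710, had 30 and 20 counts with EV against 77 and 84 with TET1-CD. The groups did not overlap, and the TET1-CD libraries were close to each other. Scaled means were 24.6 ± 4.30 and 80.8 ± 1.37 (SD, n = 2 each), a log2 fold change of 1.70 (SE 0.24) or 3.25-fold. The FPKM levels were 0.41 and 0.47 with EV against 0.98 and 1.11 with TET1-CD, a smaller ratio than that of the counts. At the level of transcripts the estimate was not steady between libraries. ENST00000357552 was given 22.29 and 0.03 counts under EV against 74.47 and 56.49 under TET1-CD, while ENST00000371001 was given 0 and 17 with EV against 0.09 and 23.09 with TET1-CD. These transcripts therefore exchanged counts between replicates, and the sum over the gene is the value used here.

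HORMAD1, which marks the unsynapsed chromosome axis and promotes break formation, had 5 and 6 counts with EV against 15 and 20 with TET1-CD. The gene lies at chr1:150670536-150693364. The scaled means were 5.53 ± 1.31 and 17.5 ± 2.18 (SD, n = 2 each), a log2 fold change of 1.66 (SE 0.50). This was the call of the 4 that changed most often with the settings and libraries used. It was lost with DESeq2, with the replicate number as a block, and when any single library was left out. Its paralogue HORMAD2 had no count in any library.

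SMC1B, the meiosis-specific SMC subunit of cohesin at chr22:45739944-45809500, had 8 and 8 counts with EV against 28 and 30 with TET1-CD. Replicates were nearly equal within each group, and the groups were well apart. The scaled means were 7.99 ± 0.88 and 29.1 ± 0.86 (SD, n = 2 each), a log2 fold change of 1.86 (SE 0.40) or 3.62-fold. The FPKM levels were 0.10 and 0.12 with EV against 0.43 and 0.40 with TET1-CD. Most of the difference lay in ENST00000404354, with 1.4 and 4.3 counts with EV against 23.36 and 19.3 with TET1-CD. The other transcript, ENST00000357450, had 6.6 and 3.7 counts with EV against 4.64 and 10.7 with TET1-CD, which overlap. The call was lost with DESeq2 and when TET1-CD replicate 1 or 2 was left out.

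The other subunits of meiotic cohesin were not called, and their difference from SMC1B was not tested. REC8, the meiotic kleisin, had 60 and 82 counts with EV against 58 and 47 with TET1-CD, a log2 fold change of -0.43 (SE 0.27). STAG3, the meiotic SA subunit, had 41 and 18 counts with EV against 17 and 22 with TET1-CD, and its log2 fold change of -0.57 (SE 0.40) rested on EV replicate 1: it was 0.003 without that library. RAD21L1, a second meiotic kleisin, was not tested and had 2 and 9 counts with EV against 5 and 12 with TET1-CD, a ratio of summed counts of 1.57 (exact 95% counting interval 0.696 to 3.72). After scaling to library size, the groups overlapped for all 3 genes. REC8 overlaps IPO4, which runs the other way and had 865 to 1131 counts, and STAG3 overlaps a GATS locus with 15 to 23 counts. The sources used here do not say whether counting used strand, so reads in the shared bases cannot be assigned with certainty.

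**Figure D2:**
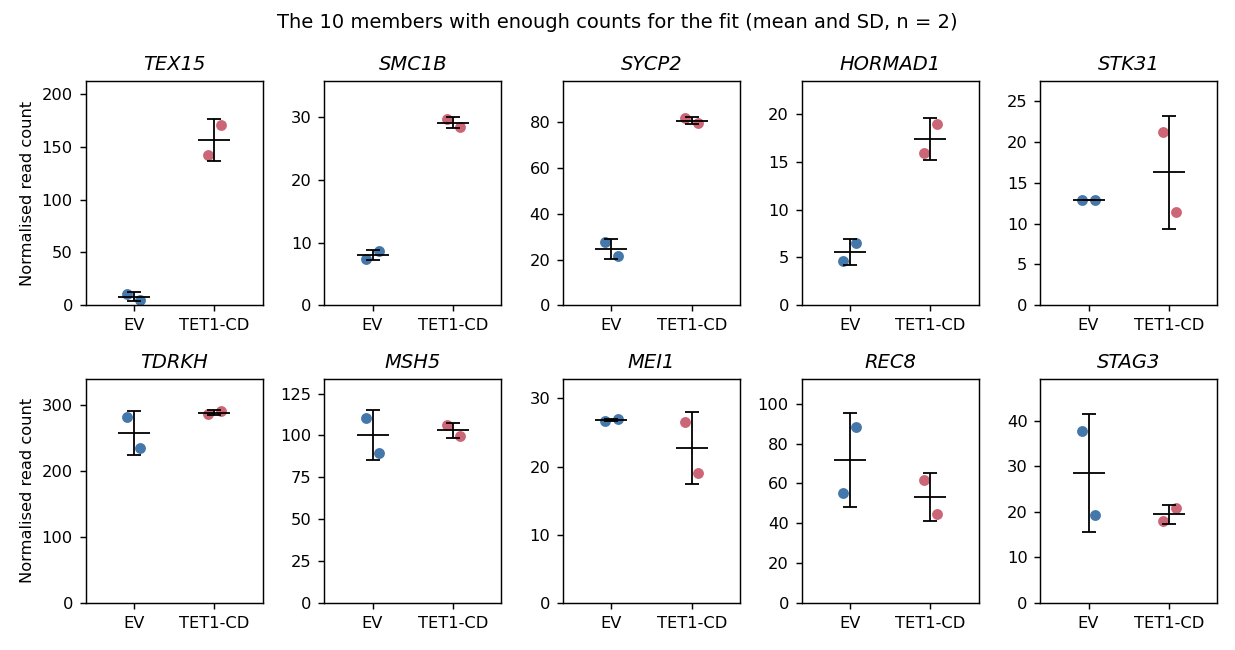
Counts per library for the 10 tested genes, scaled to a common library size, with each point 1 library, bars for the mean and SD (n = 2), and an axis that starts at 0 but differs in scale between panels. The groups are far apart for TEX15, SMC1B, SYCP2 and HORMAD1, while STK31, MSH5, REC8 and STAG3 overlap.

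Among the other genes of the synaptonemal complex group, none was tested. SYCP3, which pairs with SYCP2 in the lateral element, had 8 and 3 counts with EV against 2 and 7 with TET1-CD, which overlap. SYCE2, of the central element, had 6 and 1 with EV against 7 and 4 with TET1-CD. The summed counts of SYCE2 gave a TET1-CD to EV ratio of 1.6, with an exact 95% counting interval of 0.567 to 4.87. SYCP1, which forms the transverse filaments, SYCE1 of the central element and TEX11 each had 1 count in all, in TET1-CD replicate 2. SYCP1, SYCP3 and SYCE1 thus did not exceed the floor in both libraries of either group.

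Among the recombination genes, DMC1 also had more counts in both TET1-CD libraries than in either EV library. DMC1, the meiosis-specific strand exchange recombinase, had 2 and 2 counts with EV against 8 and 10 with TET1-CD. The ratio of the summed counts was 4.59 (exact 95% counting interval 1.51 to 18.6), but with under 10 counts in most libraries it did not enter the test. In a fit without the filter its log2 fold change was 2.11 (SE 0.94). MSH5, which stabilises crossover intermediates, had the most counts of this group in EV cells, where it had 120 and 83 counts with EV against 100 and 105 with TET1-CD, and a log2 fold change of 0.04 (SE 0.17). MSH5 shares sequence with the readthrough gene MSH5-SAPCD1, listed with 7 to 26 counts. Its partner MSH4 had no count in any library, and neither did SPO11, which makes the double-strand breaks that start recombination. MEI1, needed for those breaks, had 29 and 25 counts with EV against 25 and 20 with TET1-CD, a log2 fold change of -0.24 (SE 0.34). MEIOB, which binds single-stranded DNA with SPATA22, had 1 count in all.

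None of the PIWI proteins was tested. PIWIL1 had 2 counts in all, both in TET1-CD replicate 2. PIWIL2 had 3 and 10 counts with EV against 7 and 2 with TET1-CD, and PIWIL4 had 1 and 5 with EV against 5 and 5 with TET1-CD, so the groups overlapped for both. The PIWIL4 ratio was 1.70 with an exact 95% counting interval of 0.559 to 5.69.

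Of the 11 genes of piRNA biogenesis and the tudor family, only TDRKH and STK31 were tested. TDRKH, a mitochondrial tudor protein that helps to trim piRNA precursors, was the most abundant of all 42 genes, with 306 and 218 counts with EV against 270 and 307 with TET1-CD. Its log2 fold change was 0.16 (SE 0.12), and its FPKM was 5.76 and 4.56 with EV against 5.67 and 5.97 with TET1-CD. STK31, a kinase-like tudor protein, had 14 and 12 counts with EV against 20 and 12 with TET1-CD, a log2 fold change of 0.32 (SE 0.46). The groups overlapped for STK31 after scaling, whereas for TDRKH both scaled TET1-CD values were slightly above both EV values.

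MOV10L1, the RNA helicase that starts piRNA processing, had 0 and 4 counts with EV against 12 and 5 with TET1-CD. The TET1-CD libraries were the higher ones, but EV replicate 2 and TET1-CD replicate 2 were 1 count apart. The ratio of the sums was 4.33 (exact 95% counting interval 1.41 to 17.7), and without the filter the log2 fold change was 2.03 (SE 0.96). TDRD12 had 4 and 0 counts with EV against 2 and 4 with TET1-CD, TDRD9 had 1 and 0 against 2 and 1, and TDRD6 had 0 and 1 against 0 and 3. TDRD1, TDRD5, MAEL, RNF17 and ASZ1, all scaffolds or factors of the germ granules where piRNAs are made, had no count in any library.

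The germ cell RNA-binding proteins and factors were the most silent group, with 6 of 7 detected in neither group. The exception was SOHLH2, a transcription factor of early germ cell differentiation, with 0 and 3 counts with EV against 4 and 7 with TET1-CD, a ratio of 3.74 whose exact 95% counting interval of 0.987 to 20.9 includes no difference. DAZL, which controls translation in germ cells, had 2 and 4 counts with EV against 2 and 0 with TET1-CD. BOLL of the same family had 0 and 1 against 1 and 0, and DPPA3 had 1 count in all. DDX4, the RNA helicase widely used as a germ cell marker, the bromodomain protein BRDT and DPPA4 had no count in any library. Of the 2 other spermatogenesis genes, TEX101 had 1 count in all, and TEX14, which keeps the bridges between germ cells open, was the gene detected in EV cells alone, with 8 and 11 counts with EV against 4 and 2 with TET1-CD. The TEX14 ratio was 0.322 (exact 95% counting interval 0.105 to 0.838), opposite in direction to that of DMC1.

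Over the 10 tested genes the median log2 fold change was 0.24, with 7 above and 3 below 0. Over all 14573 tested genes the median was 0.001, with 7314 above and 7259 below 0. Nothing is read from this contrast, since the members were chosen with these values known. In addition, a gene low in EV passes the filter only if it is higher in TET1-CD cells. Measured per length by FPKM, TDRKH was highest in every library, followed by MSH5 and REC8, whose ranges of 2.39 to 3.67 and 1.23 to 2.54 FPKM over the 4 libraries overlap. In TET1-CD cells TEX15 (1.04 and 1.13 FPKM), SYCP2 (0.98 and 1.11) and MEI1 (1.31 and 0.77) were at like levels, and their order cannot be told from 2 libraries. In EV cells TEX15 (0.06 and 0.03 FPKM) lay below SYCP2 and MEI1 in both libraries.

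The genes next to the 4 called genes were compared to see whether the surrounding region differed too. 27 genes lay within 100 kb, of which 12 were tested and 0 were called by edgeR, whether p was adjusted or not, nor was any called by DESeq2 or limma-voom. Over all tested genes 2.72% were called higher and 1.04% lower. With 12 genes the absence of calls is near those shares, and nothing is read from it about the region. FAM217B, whose start lies 109 bp from that of SYCP2 in the files' annotation, had 865 and 685 counts with EV against 746 and 812 with TET1-CD, a log2 fold change of 0.03 (SE 0.07, edgeR adjusted p = 0.841). RIBC2, 72 bp from the start of SMC1B, had 83 and 64 counts with EV against 75 and 74 with TET1-CD, a log2 fold change of 0.04 (SE 0.18, edgeR adjusted p = 0.91). Both partners of the printed divergent promoters thus overlapped between the groups, while SYCP2 and SMC1B did not. The difference between a gene and its neighbour was not tested.

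FBLN1, which encodes a matrix protein and starts 88618 bp from SMC1B, was the neighbour with the largest value, with 2450 and 2461 counts with EV against 3366 and 3920 with TET1-CD (log2 fold change 0.575, SE 0.07, edgeR adjusted p = 0.000695), below the 2-fold limit. At HORMAD1, GOLPH3L had 713 and 760 counts with EV against 528 and 640 with TET1-CD (log2 fold change -0.33, SE 0.11, edgeR adjusted p = 0.0531). The tested neighbours of TEX15, PPP2CB and UBXN8, had log2 fold changes of 0.05 and -0.15.

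**Figure D3:**
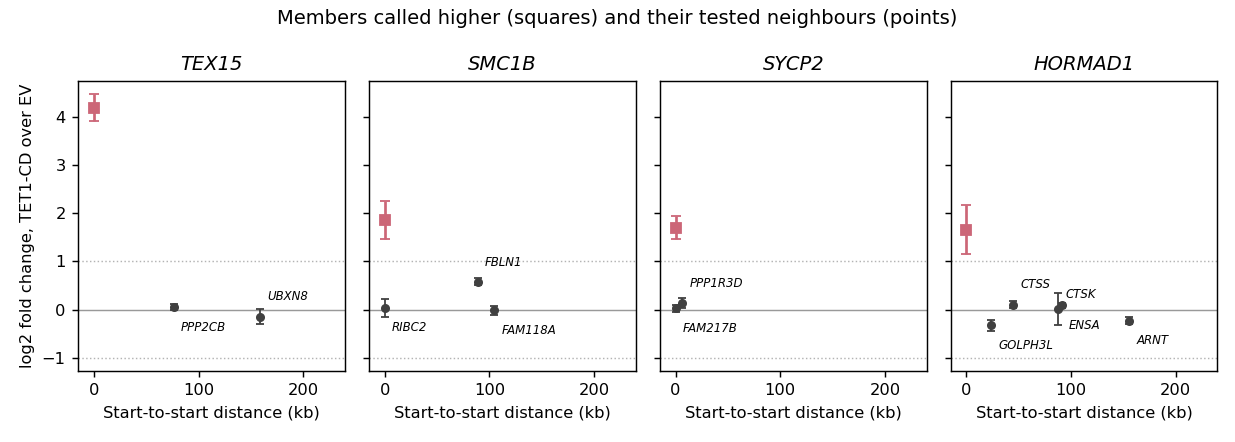
log2 fold change of TET1-CD over EV (vertical axis, error bars SE) against the distance in kb between gene starts, for each of the 4 called genes (squares at 0) and their tested neighbours within 100 kb (points). All 12 neighbours lie between -0.33 and 0.575, inside the dotted lines at 2-fold.

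74 further genes of meiosis and the piRNA pathway were listed by function to see whether the pattern was shared. 26 were tested, 1 was called higher and 0 lower, beside 2.72% higher and 1.04% lower over all tested genes. These counts are near those shares, and nothing is read from them. DESeq2 and limma-voom also placed 0 lower after adjustment, and edgeR placed 1 lower at an unadjusted p, TEX19. It had 15 and 12 counts with EV against 6 and 3 with TET1-CD (log2 fold change -1.54, SE 0.59, edgeR adjusted p = 0.097). The median log2 fold change was 0.03. 45 of the 74 were detected in neither group. SPOCD1, which links the piRNA machinery to DNA methylation of young transposons, was the gene called, with 413 and 335 counts with EV against 807 and 812 with TET1-CD (log2 fold change 1.13, SE 0.09, edgeR adjusted p = 2.46e-05). It was called under every alternative run. TCFL5, a germ cell transcription factor, had a log2 fold change of -0.61 (edgeR adjusted p = 0.0104), and TRIP13, which strips HORMA proteins from the axis, one of 0.20 (edgeR adjusted p = 0.0356); neither reached 2-fold.

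Of 28 germ cell and pluripotency factors, 9 were tested, 2 were called higher and none lower, the latter also at an unadjusted p and by DESeq2 and limma-voom, beside 2.72% and 1.04% over all tested genes. Both called genes were low in EV cells and passed the filter only through the TET1-CD libraries, and the list was chosen with earlier results known, so nothing is read from this count or from their p-values. SOHLH1, the partner of SOHLH2, had 2 and 0 counts with EV against 12 and 23 with TET1-CD (edgeR adjusted p = 0.00995), a ratio of summed counts of 17.8 with an exact 95% counting interval of 4.58 to 153. Its fitted log2 fold change of 3.98 depended on the EV libraries, being 7.10 without EV replicate 1 and 3.16 without EV replicate 2, and it was not tested without TET1-CD replicate 2. PRDM1, a repressor that specifies primordial germ cells and also acts in other lineages, had 8 and 8 counts with EV against 19 and 25 with TET1-CD (log2 fold change 1.46, SE 0.43, edgeR adjusted p = 0.0407), a call that was lost with DESeq2 and when any single library was left out. KLF4, a factor of both epithelia and stem cells, had a log2 fold change of -0.57 (edgeR adjusted p = 0.00518). 19 of the 28 were detected in neither group.

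Of 30 genes known to hold germline genes silent, among them DNA methyltransferases and the E2F6, MGA and PRC1 repressors, 29 were tested and 0 were called in either direction by edgeR with an adjusted or unadjusted p, by DESeq2 or by limma-voom. Over all tested genes 2.72% were called higher and 1.04% lower. The absence of calls is near those shares, and nothing is read from it. Their median log2 fold change was 0.013. The smallest p-values were those of MAX (log2 fold change -0.23, edgeR adjusted p = 0.0271), HELLS (0.23, adjusted p = 0.0343) and DNMT1, the maintenance methyltransferase (0.27, adjusted p = 0.0392). EHMT2 (-0.29, edgeR adjusted p = 0.0408) and UHRF1 (0.23, edgeR adjusted p = 0.0474) were the others with an adjusted p below 0.05. All lay far below 2-fold. With DESeq2 the adjusted p was 0.131 for MAX, 0.0462 for HELLS and 0.0332 for DNMT1. When each library was left out, the log2 fold change was -0.259 to -0.194 for MAX, 0.148 to 0.304 for HELLS and 0.141 to 0.396 for DNMT1.

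Promoter sequence was then described over the members, independent of the counts. RefSeq entries (GRCh38.p14, the 250 bases before the start) were found for 36 of the 42 genes, with 46 starts. The genes with no entry were HORMAD1, MEIOB, PIWIL2, PIWIL4, TEX14 and TEX15. The ratio of observed to expected CpG had a median of 0.76 (quartiles 0.67 to 0.88) over the members, against 0.56 (0.22 to 0.85) over 35116 starts of 27305 genes. Median GC content was 63.8% against 58.0%. SMC1B, at 1.27 with 29 CpG, had the highest ratio of the members, and SYCP2 had 0.92 with 33 CpG. Both windows reach into the divergent neighbour. Outside it lie 93 bases with 15 CpG at SMC1B and 141 bases with 20 CpG at SYCP2.

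CpG ratios overlapped between members that were transcribed and members that were not. The 36 starts of members that were not tested had a median ratio of 0.74, the 8 starts of tested members that were not called 0.81, and the 15 starts of the members with no count anywhere 0.74. The letters CACGTG, the E-box bound by MGA and MAX, were found on either strand in 23.9% of the members' starts and 6.3% of all starts. TCCCGC, of the E2F6 motif, was found in 39.1% against 23.5%, and CGCATGCG, of the NRF1 motif, in 6.5% against 1.7%. Each of these motifs contains CpG, in which the members' windows were also richer, and motif and composition were not separated. Starts of the same gene were counted separately. The windows of SYCP2 and SMC1B both held TCCCGC or its complement and neither held CACGTG. A match of letters is a description and not a bound site, and DNA methylation was not measured in these libraries.

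**Figure D4:**
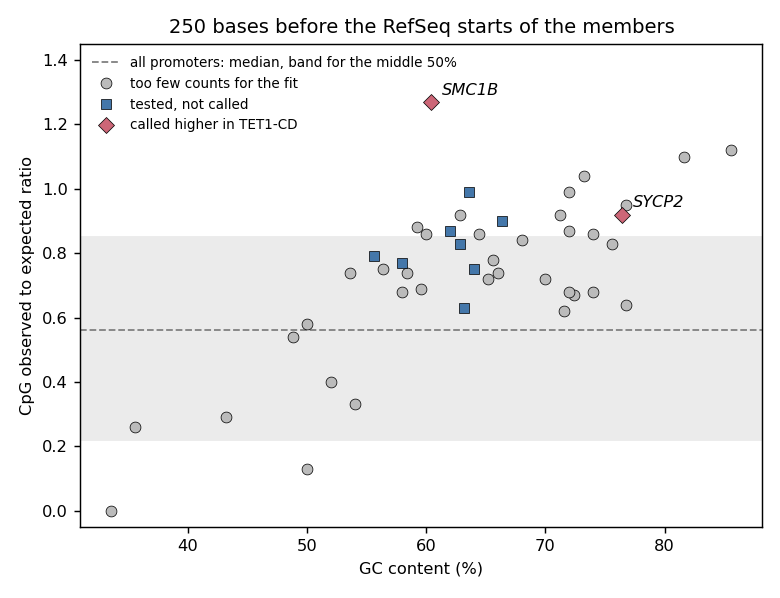
Observed to expected CpG ratio (vertical axis) against GC content in percent (horizontal axis) in the 250 bases before each of the members' 46 RefSeq starts, marked by call, with a dashed line at the median and a band between the quartiles of all 35116 starts. SMC1B (1.27) and SYCP2 (0.92), whose windows reach into the divergent neighbour, lie among the CpG-rich members. Members with too few counts to be tested (grey) reach from 0, at the only listed start of DDX4, to 1.12.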

How the data were processed

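RNAseq of T24 cells comprised 2 EV and 2 TET1-CD libraries; whether these came from separate cultures is not stated, so p-values measure only the spread between libraries, which may be technical. Per transcript, the authors deposited expected counts (estimated fragments that need not be whole) and FPKM. The submitters' processing notes name cutadapt 1.9.1, HISAT2 2.0.1, HTSeq 0.6.1, DESeq2 and hg19, without roles; the estimating step and strand setting are not given in the sources used here, nor whether poly(A) selection or rRNA removal was applied.

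All transcripts of a gene had their expected counts added up, the sums were rounded and fitted on all genes with edgeR 4.0.16 in R 4.3.3 (glmQLFit and glmQLFTest, TMM, filterByExpr, no block). Of 57879 genes, 14573 were tested, with Benjamini-Hochberg adjustment over all of them. SE was |log2 fold change| / sqrt(F). Scaled counts used TMM library sizes. Coordinates are hg19 as in the files, except promoters. FPKM was summed over transcripts. The members and lists were chosen with earlier results of these data known. All members were accounted for; of each other list, genes called or otherwise the 3 with the smallest p were named, and genes given beyond that (cell markers, neighbours, and genes given for comparison) were chosen after their values were seen. Same-numbered libraries share only a number (correlation of deviations 0.00715 over 14573 genes). Alternatives were RLE, no filter, library size only, a minimum of 10 counts in every library, DESeq2 1.42.0, limma-voom 3.58.1, the replicate block, no fold threshold, FPKM ratios, other detection floors, and omission of each library. The scripts were tested on simulated data with changes only in genes above a count limit. This checked the code and lends no support to the calls here.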

Additional observations from a re-analysis of the deposited data

How the results depend on the processing

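Of the 4 genes called higher, 4 were also called with RLE, library size only, no filter and limma-voom. The count was 2 with DESeq2 (SYCP2 and TEX15), 1 with 10 counts in every library (SYCP2, since this filter removes the others), 3 with the replicate block (HORMAD1 was not called), and 2 to 4 when each library was left out: 3 without EV replicate 1, 4 without EV replicate 2 (MOV10L1 in place of HORMAD1) and 2 without TET1-CD replicate 1 or 2. SYCP2 was called in every alternative fit on all 4 libraries, and TEX15 in each of those that tested it. Their log2 fold changes were 1.54 to 1.89 and 3.81 to 4.82 over the fits, those without a library included. The members were chosen with values of these same libraries known. A call that stays thus describes only how the result depends on the processing, and lends the gene no support. SMC1B (1.73 to 1.96) lost its call in 3 of 10 alternatives and HORMAD1 (1.41 to 1.899) in 6 of 10. The block changed no other call among the members, SPOCD1, SOHLH1 and PRDM1. As log2 ratios of mean FPKM with a pseudocount of 0.1, the values were 3.03 for TEX15, 1.29 for SMC1B, 1.08 for SYCP2 and 1.03 for HORMAD1, and with 0.01 they were 4.32, 1.82, 1.23 and 1.30. Signs of uncalled genes turned when a library was left out for STAG3 (range -0.948 to 0.003, the latter without EV replicate 1), STK31 (-0.175 without TET1-CD replicate 1, up to 0.713) and MSH5 (-0.105 without EV replicate 2 and -0.006 without TET1-CD replicate 1, up to 0.195). With no fold threshold, 2 of the other meiosis and piRNA genes were higher and 1 lower. With a floor of 10 counts 32 members were detected in neither group, and with 1 library sufficient 21. The cause of these shifts was not tested. The 32 members below the filter had at most 12 counts in any library, and depth limits what can be said of them.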

Other observations

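Somatic counterparts of some members were looked up after the values above were seen, and carry no test. SMC1A, the somatic counterpart of SMC1B, had 5723 and 3956 counts with EV against 5135 and 5738 with TET1-CD, a log2 fold change of 0.19 (SE 0.08). RAD21, the mitotic kleisin, had 8710 and 7162 with EV against 7148 and 8167 with TET1-CD (-0.04, SE 0.05). MOV10, related to MOV10L1, had 1873 and 1727 with EV against 1313 and 1442 with TET1-CD (-0.37, SE 0.06). Mean FPKM was 39.8 in EV and 48.5 in TET1-CD for SMC1A, against 0.11 and 0.415 for SMC1B.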
